A study of Mus musculus with 6 samples.

Results

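Transcripts of 10 lymphocyte genes were followed through 6 libraries of RNA from sorted ileal tuft cells. The genes were listed by name, as T cell and cytotoxic lymphocyte genes, when earlier results of these data were already known, and they are 10 of the 23420 genes in the table. They comprise the CD3 chain genes Cd3e, Cd3g and Cd3d, the surface receptor genes Cd8a, Cd7 and Itgae, the granule genes Gzma, Gzmb and Nkg7, and the chemokine gene Ccl5. The mean of each of the 10 reached 1 TPM, the lowest mean at which genes were tested. TPM, a relative measure of transcript number, is corrected for transcript length and sums to 1000000 in each library, so that levels can be compared between genes.

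The libraries form 1 group of 6 mouse replicates, of Gfi1b-eGFP/+ genotype on the C57BL/6J background. Green fluorescent protein in these mice is made from the locus of Gfi1b, a transcription factor gene that marks tuft cells within the epithelium and is also active in blood cell lineages. The cells were sorted as positive for GFP and for the epithelial protein EpCam, and as negative for CD45, the surface protein of leukocytes that is encoded by Ptprc. No comparison group was analysed here, so the design implies comparisons of genes across libraries and no contrast of conditions.

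Intraepithelial lymphocytes are T cells that live between the epithelial cells of the intestine. The T cell receptor of these cells signals through the CD3 chains, many of the cells carry CD8 made of 2 alpha chains, and the integrin CD103 (alpha chain Itgae) binds E-cadherin on the epithelium. They store granzymes in cytotoxic granules and secrete CCL5. Tuft cells are chemosensory epithelial cells, and they are known to transcribe a number of genes that are otherwise typical of blood cells, Ptprc among them.

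Promoter sequences are shown for a pair of members that had parallel levels and for a pair of neighbouring members that did not. Gzma and Gzmb, which encode granzymes A and B, lie on different chromosomes and had similar profiles across the libraries (Pearson's r = 0.906 on the log2(TPM + 1) scale). Cd3g and Cd3d lie back to back on chromosome 9, with 1355 bases between their starts. Their low levels did not run in parallel (r = -0.60, exact permutation p = 0.186, adjusted p = 0.971). Both pairs were chosen after their values were seen. Each line gives the 250 bases before the RefSeq start of the gene on GRCm38.p6, read 5′ to 3′ on the gene's own strand. The windows are chr13:113100982-113101231 (minus strand) for Gzma, chr14:56262335-56262584 (minus strand) for Gzmb, chr9:44980432-44980681 (minus strand) for Cd3g and chr9:44981536-44981785 (plus strand) for Cd3d. Capitals mark matches on either strand to TGTGGT, a core of sites for RUNX factors, and to AGGAAG, a core of sites for ETS factors, and no match overlapped another.
Gzma: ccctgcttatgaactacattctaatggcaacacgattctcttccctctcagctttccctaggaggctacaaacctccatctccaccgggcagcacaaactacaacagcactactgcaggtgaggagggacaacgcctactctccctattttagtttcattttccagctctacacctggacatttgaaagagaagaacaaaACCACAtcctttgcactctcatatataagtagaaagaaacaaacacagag
Gzmb: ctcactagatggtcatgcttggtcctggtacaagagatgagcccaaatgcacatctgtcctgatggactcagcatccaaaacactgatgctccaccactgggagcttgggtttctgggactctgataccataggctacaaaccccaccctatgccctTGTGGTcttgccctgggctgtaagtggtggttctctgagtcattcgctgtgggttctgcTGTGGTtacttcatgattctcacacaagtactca
Cd3g: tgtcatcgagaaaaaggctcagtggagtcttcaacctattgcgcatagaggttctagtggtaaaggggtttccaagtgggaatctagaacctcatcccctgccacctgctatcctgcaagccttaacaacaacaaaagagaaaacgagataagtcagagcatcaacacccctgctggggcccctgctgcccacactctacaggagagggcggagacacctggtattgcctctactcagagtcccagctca
Cd3d: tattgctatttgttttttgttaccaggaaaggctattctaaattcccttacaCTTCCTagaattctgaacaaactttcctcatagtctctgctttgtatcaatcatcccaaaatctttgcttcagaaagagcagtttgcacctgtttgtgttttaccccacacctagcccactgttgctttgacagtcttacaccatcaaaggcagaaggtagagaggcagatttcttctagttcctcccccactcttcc
The Gzma window held 1 RUNX core, the Gzmb window 2, the Cd3d window 1 ETS core and the Cd3g window neither. Of the 10 members, 7 had a promoter window in the RefSeq table. A RUNX core was found in 3 of these 7 windows (Gzma, Gzmb and Nkg7) and in 14.0% of all 32851 windows of this length, and an ETS core in 3 of the 7 (Cd3e, Cd3d and Nkg7) and in 29.5% of all windows. A match describes the letters of the window and is not a measured binding site.

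Depth is unknown, because TPM keeps no read number. The libraries listed 13044 to 13308 genes above 0 and correlated with one another at Spearman's rho of 0.915 to 0.937 across genes. Rn45s, the ribosomal RNA precursor, took 23.1% to 32.6% of the TPM. Replicates 1 to 3 and replicates 4 to 6 differed in Gm20594, which had 15588 to 21283 TPM in the former and 51805 to 56441 TPM in the latter, and correlations were therefore also computed after centring within these sets. In an amplified library without counts, an exact 0 may be a failed estimate, so a gene at 0 is described as listed at 0. In these bulk libraries, fewer cells of a type and less RNA per cell cannot be told apart.

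The CD3 chains were all detected, at low levels. Cd3e (chromosome 9 of GRCm38, 44998740 to 45009627, minus strand), a CD3 chain of the T cell receptor complex, had 3.70, 3.43, 1.5, 4.5, 1.52 and 11.6 TPM in replicates 1 to 6, and averaged 4.38 ± 3.75 TPM (SD, n = 6). Replicate 6 stood above the other libraries, and without it the mean was 2.93 TPM. Cd3g (44969572 to 44980431 on the same chromosome, minus strand) had 0, 10.5, 2.51, 4.25, 13.1 and 11.3 TPM, a mean of 6.95 ± 5.39 TPM. It was listed at 0 in replicate 1, in which Cd3e and Cd3d were both above 3 TPM. Cd3d (44981786 to 44987339, plus strand) had 3.85, 2.21, 1.18, 4.16, 0.98 and 1.18 TPM, a mean of 2.26 ± 1.42 TPM, and its highest libraries, replicates 4 and 1, were not those of Cd3g. The 3 chains form 1 complex in T cells, yet replicate 5 held the highest level of Cd3g and the lowest of Cd3d. Together they had 5.19 to 24.1 TPM per library. Exons of Cd3e share 135 bases with the antisense transcript Gm48719 in GENCODE M21, and the strand setting of the counting is not given in the sources used here, so reads from the shared bases cannot be told apart.

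The surface receptor genes differed from one another in the libraries in which they were high. Cd7 (chromosome 11, 121036747 to 121039418, minus strand), which encodes a receptor of T and natural killer cells, had 2.51, 4.40 and 2.47 TPM in replicates 1 to 3 and 15.9, 16.1 and 13.9 TPM in replicates 4 to 6. The share of all genes that differed likewise between these sets was not counted. The mean of Cd7 was 9.21 ± 6.75 TPM (SD, n = 6). Cd7 shares 122 exonic bases with the antisense transcript Gm11775. Itgae (chromosome 11, 73090583 to 73147446, plus strand), the gene of CD103, had 9.43 TPM in replicate 1 and 16.2 TPM in replicate 6, and 1.62 to 2.20 TPM in the others. Cd8a (chromosome 6, 71373427 to 71379173, plus strand), the gene of the CD8 alpha chain, had 1.92, 0.56, 0.57, 4.5, 8.42 and 1.03 TPM, and was thus highest in replicates 5 and 4. The means were 5.52 ± 6.05 TPM for Itgae and 2.83 ± 3.11 TPM for Cd8a.

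The granule genes and Ccl5 were the most abundant members and shared a profile. Gzma (chromosome 13, 113093825 to 113100981, minus strand), the gene of granzyme A, had 10.4, 35.7, 29.05, 35.96, 141 and 158 TPM across replicates 1 to 6, and averaged 68.3 ± 63.6 TPM (SD, n = 6). In replicate 1 it lay at the 48.5th percentile of the genes above 0 of its library, and in the highest library at the 95.4th. Gzmb (chromosome 14, 56258838 to 56262260, minus strand), the gene of granzyme B, had 4.90, 10.6, 3.54, 7.42, 26.65 and 30.1 TPM, a mean of 13.9 ± 11.5 TPM. Nkg7 (chromosome 7, 43437073 to 43438249, plus strand), which encodes a membrane protein of cytotoxic granules, had 4.19, 10.95, 5.31, 7.57, 29.9 and 40.0 TPM, a mean of 16.3 ± 14.9 TPM. Ccl5 (chromosome 11, 83525778 to 83530518, minus strand), the gene of a chemokine that draws T cells, had 9.29, 40.3, 48.4, 50.8, 158 and 150.4 TPM, a mean of 76.2 ± 62.3 TPM. Replicates 5 and 6 were the highest libraries for each of these 4 genes, and no other library reached their level.

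**Figure D1:**
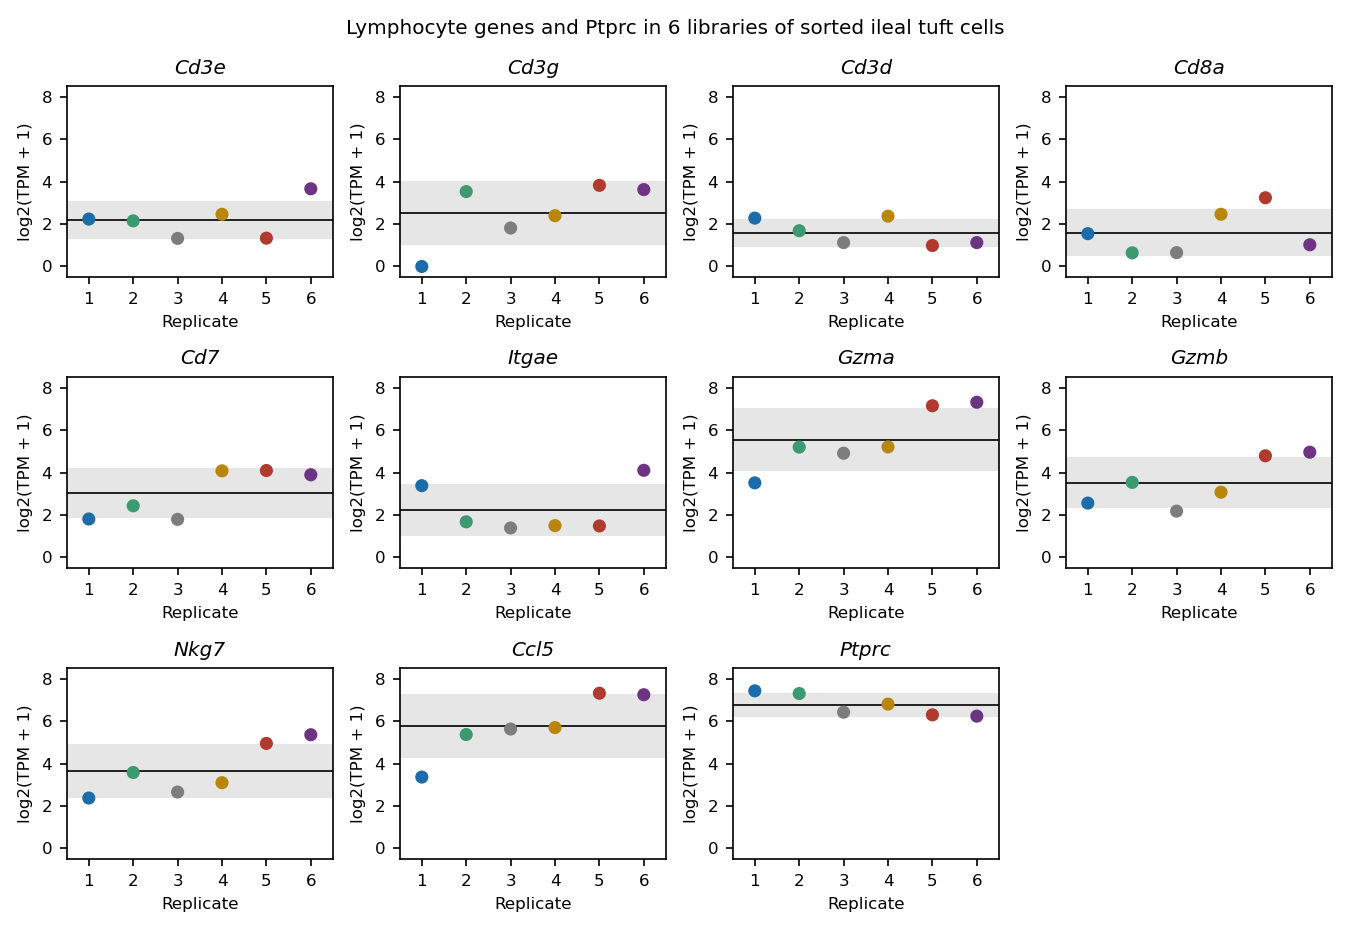
Level of each of the 10 lymphocyte genes and of Ptprc, as log2(TPM + 1), in replicates 1 to 6; the line is the mean over the 6 libraries and the grey band is 1 SD on each side. Gzma, Gzmb, Nkg7 and Ccl5 are highest in replicates 5 and 6, Cd3e and Itgae are highest in replicate 6, and Ptprc is highest in replicate 1.

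By mean TPM the order was Ccl5, Gzma, Nkg7, Gzmb, Cd7, Cd3g, Itgae, Cd3e, Cd8a and Cd3d. The step from Gzma to Nkg7 was the only one between neighbours that held in 6 of 6 libraries. Nkg7 exceeded Gzmb, and Gzmb exceeded Cd7, in 5 of 6. Ccl5 exceeded Gzma in 4 of 6, and the neighbours below Cd7 were in the order of their means in 2 to 4 of 6 libraries. The order of these genes thus varied between libraries, and no difference between them was tested. The summed level of the 10 genes was 50.2, 121, 96.1, 137, 397 and 433 TPM in replicates 1 to 6, a mean of 205.8 ± 165 TPM, and the highest library had 8.63 times the lowest. Gzma, Gzmb, Nkg7 and Ccl5 made up 57.4% to 89.8% of that sum. Rn45s, at 25.1%, 24.8%, 23.1%, 26.7%, 32.6% and 32.2% of the TPM, was also highest in replicates 5 and 6, and its part in the difference was not tested. Rescaled without Rn45s and Gm20594, the highest library had 10.1 times the lowest.

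Whether the 10 genes were high in the same libraries was read from their 45 pairs. Pearson's r of log2(TPM + 1) had a median of 0.309 over these pairs, with a range from -0.74 to 0.980, and was above 0 in 35 of 45. Over all 72378496 pairs of the tested genes, the median was 0.0479 and 53.5% were above 0. An r of at least 0.8 was found for 8 of the 45 pairs (17.8%) and for 3.72% of all pairs. With Spearman's rho, 9 of the 45 pairs (20%) and 3.77% of all pairs were at least 0.8. Pairs share genes and all rest on the same 6 libraries, so they are not independent and are given as a description.

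The pairs with high r came from the granule genes, Ccl5 and Cd3g. Among Gzma, Gzmb, Nkg7 and Ccl5, r ranged from 0.793 to 0.980 (rho 0.657 to 0.943). Cd3g, a CD3 chain gene, correlated with these genes at 0.791 to 0.882, and at 0.676 to 0.840 after centring within replicates 1 to 3 and 4 to 6. Cd7 had 0.739 to 0.779, but 0.226 to 0.390 after the same centring. The values for Cd8a were lower, at 0.269 to 0.358 and at -0.42 to -0.25 after centring, as were those for Cd3e, at 0.137 to 0.409, and for Itgae, at -0.09 to 0.309. Cd3d had r of -0.74 to -0.52 with the same 4 genes. Among the CD3 chains themselves, r lay between -0.60 and 0.179.

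Because replicates 5 and 6 stand apart for Gzma, the pairs with it were also computed on the other 4 libraries, the 2 left out being the farthest from its median. Gzma and its partners here were chosen after the values were seen, so the p-values of these pairs are only a description. Over all 6 libraries, Gzma correlated with Nkg7 at r = 0.962 (exact permutation test, p = 0.00278) and rho = 0.943 (exact p = 0.0167), and the p adjusted over the genes tested against Gzma was 0.640. Over the 4 libraries it was 0.792. With Ccl5, r was 0.974 (exact p = 0.00972, adjusted p = 0.640), rho was 0.886 (exact p = 0.0333), and r was 0.971 on the 4 libraries. With Gzmb, r was 0.906 (exact p = 0.0194, adjusted p = 0.644), rho was 0.886 (exact p = 0.0333), and r was 0.460 on the 4 libraries, so that this relation rests in part on replicates 5 and 6. After centring within replicates 1 to 3 and 4 to 6, the values were 0.922 for Nkg7, 0.941 for Ccl5 and 0.794 for Gzmb. The ratios of these genes varied less than the genes did. Ccl5 was 0.891 to 1.67 times Gzma and Nkg7 was 0.855 to 1.5 times Gzmb, while Gzma was 2.13 to 8.21 times Gzmb.

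**Figure D2:**
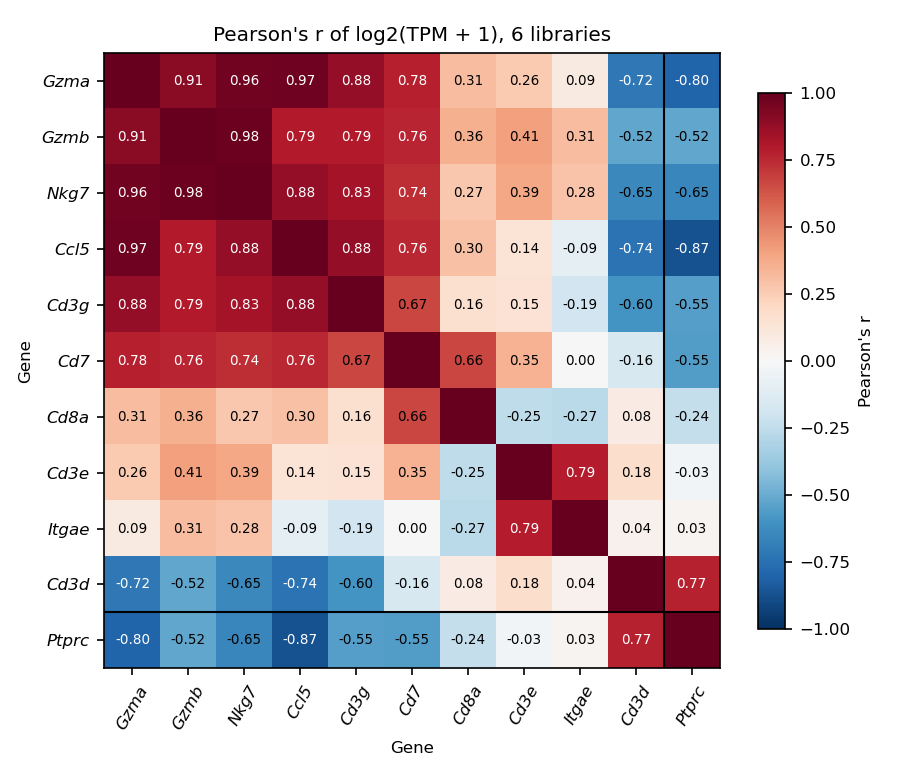
Pearson's r of log2(TPM + 1) over the 6 libraries for every pair of the 10 lymphocyte genes and Ptprc, with red for positive and blue for negative values; the black lines set Ptprc apart. Gzma, Gzmb, Nkg7, Ccl5, Cd3g and Cd7 form a block of positive values, in which the 4 genes named first have r of 0.793 to 0.980 with one another, and Cd3d has negative values with that block.

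Cd3e served as the anchor for the question whether the genes followed a CD3 chain of the T cell receptor complex. Its r was 0.147 with Cd3g and 0.179 with Cd3d, so Cd3e does not stand for the CD3 chains together. All genes that averaged 1 TPM or more were tested against it by a two-sided exact permutation test of r over the 720 pairings of the 6 libraries, in which the smallest possible p is 0.00139, with Benjamini-Hochberg adjustment over the 12031 genes tested. None of the 9 other members rose with Cd3e at an unadjusted p below 0.05 (0 of 9), where 1.44% of all genes did, and none fell (0 of 9), where 2.62% of all genes did. By Spearman's rho the counts were also 0. The median r over the 9 members was 0.258, and that over all genes was -0.06. No tested gene passed an adjusted p of 0.05, the smallest being 0.760. With a smallest p of 0.00139, an adjusted p could pass only if many genes reached it or came near it. The adjusted p therefore says little about a single gene.

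Itgae, whose product ties the lymphocyte to the epithelium, had the highest r with Cd3e of the 9, at 0.787 (exact permutation p = 0.0542) and rho of 0.829 (exact p = 0.0583). Both genes were highest in replicate 6 and lowest in replicate 3. Without those 2 libraries r was 0.285, so the relation rests on them. Rescaling by median-of-ratios, or without Rn45s and Gm20594, brought the p to 0.0444 and 0.0458 in the same exact permutation test, and the count of members that rose with Cd3e to 1. For Gzma, r with Cd3e was 0.258 (exact p = 0.644), and Gzma was 2.82 to 92.5 times as abundant as Cd3e in the same library. Replicate 5, in which Cd3e had 1.52 TPM and Gzma 141 TPM, and replicate 6, in which they had 11.6 and 158 TPM, differed little in Gzma and several-fold in Cd3e. The median r with Cd3e was -0.24 without replicate 6 and 0.712 without replicate 5, so these libraries decide it.

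Ptprc (chromosome 1, 138062861 to 138175708, minus strand), the gene of CD45, was far more abundant than the CD3 chains although the cells had been sorted as CD45-negative. It had 171, 156, 84.5, 110.5, 77.4 and 74.2 TPM in replicates 1 to 6, a mean of 112 ± 42.0 TPM (SD, n = 6), and the highest library had 2.30 times the lowest. Replicates 1 and 2 were highest, and replicates 5 and 6, in which Gzma was highest, were lowest.

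None of the 10 members rose with Ptprc in the exact permutation test at an unadjusted p below 0.05 (0 of 10), where 6.91% of all genes did. Ccl5 fell with it, so that 1 of 10 members did, where 2.24% of all genes did. By Spearman's rho the counts were the same. The median r of the members with Ptprc was -0.53, and that of all genes was 0.169. After centring within replicates 1 to 3 and 4 to 6 the median of the members was 0.00757, with Cd7 at 0.422 and Cd8a at 0.333, so the negative median did not hold within these sets, while Ccl5 was at -0.77 and Gzma at -0.64. No adjusted p over the 12031 genes passed 0.05, the smallest being 0.418, and the limit given for Cd3e holds here too. For Ccl5, r was -0.87 (exact permutation p = 0.0139, adjusted p = 0.457) and rho was -0.89 (exact p = 0.0333), and with replicates 1 and 2 left out, which lay farthest from the Ptprc median, r was -0.76. The unadjusted p of Ccl5 was 0.0514 after median-of-ratios rescaling, 0.0847 without Rn45s and Gm20594 and 0.278 within the sets of libraries, all by exact permutation. Gzma had r of -0.80 (exact p = 0.0708), Nkg7 -0.65 (exact p = 0.169), Cd7 -0.55 (exact p = 0.246), Cd3g -0.55 (exact p = 0.258), Gzmb -0.52 (exact p = 0.283) and Cd8a -0.24 (exact p = 0.637). On the positive side was Cd3d, at 0.770 (exact p = 0.117), and Itgae was near 0, at 0.0296 (exact p = 0.951). The value of Cd3g rested on replicate 1, in which it was listed at 0, and was -0.0120 without that library.

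Cd3e itself had r of -0.03 with Ptprc (exact permutation p = 0.957, adjusted p = 0.996) and rho of -0.09 (exact p = 0.919). Without replicates 1 and 2 it was -0.07. The value depended on replicate 6, which had the highest Cd3e and the lowest Ptprc, and it was 0.775 when that library was left out. Within replicates 1 to 3 it was 0.9995 and within replicates 4 to 6 -0.11, sets too small for a test to reach 0.05 by themselves, and 0.293 after centring within both sets (exact p = 0.444). Ptprc was 46.2, 45.6, 56.3, 24.6, 50.9 and 6.38 times as abundant as Cd3e in replicates 1 to 6, so that 4 libraries had ratios near 50 and replicates 4 and 6 lower ones. A least-squares line of Ptprc on Cd3e in TPM had an R2 of 0.0511 and reached 123 TPM of Ptprc at 0 TPM of Cd3e. With each library left out in turn, R2 was 0.0363 to 0.452 and that intercept 58.8 to 144 TPM, the highest R2 and the lowest intercept being those without replicate 6. Ptprc was 0.471 to 16.4 times as abundant as Gzma.

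Of the 11 cell type lists compared, that of tuft cell genes had the highest r with Ptprc, and 8 of its 14 genes rose with Ptprc at an unadjusted exact permutation p below 0.05, where 6.91% of all genes did. The r with the median log2(TPM + 1) of 14 tuft cell genes was 0.941 (exact permutation p = 0.00556) and rho was 0.943 (exact p = 0.0167), and r was 0.739 without replicates 1 and 2. The p adjusted over the 11 lists was 0.0509 and did not pass 0.05. After centring within the sets of libraries r was 0.902 (exact p = 0.0833). The ratio of Ptprc to Dclk1, the gene of a kinase used as a tuft cell marker, was 0.135 to 0.208, a span of 1.55-fold, where the ratio to Cd3e spanned 8.83-fold and that to Gzma 34.8-fold. These spans depend on how far each divisor itself varied, which was 1.61-fold for Dclk1, 7.75-fold for Cd3e and 15.1-fold for Gzma. Ratios to all other genes were not computed, so the contrast is only a description. Trpm5 and Alox5ap, abundant genes of the tuft cell list, had 839 to 1403 TPM and 668 to 1590 TPM.

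**Figure D3:**
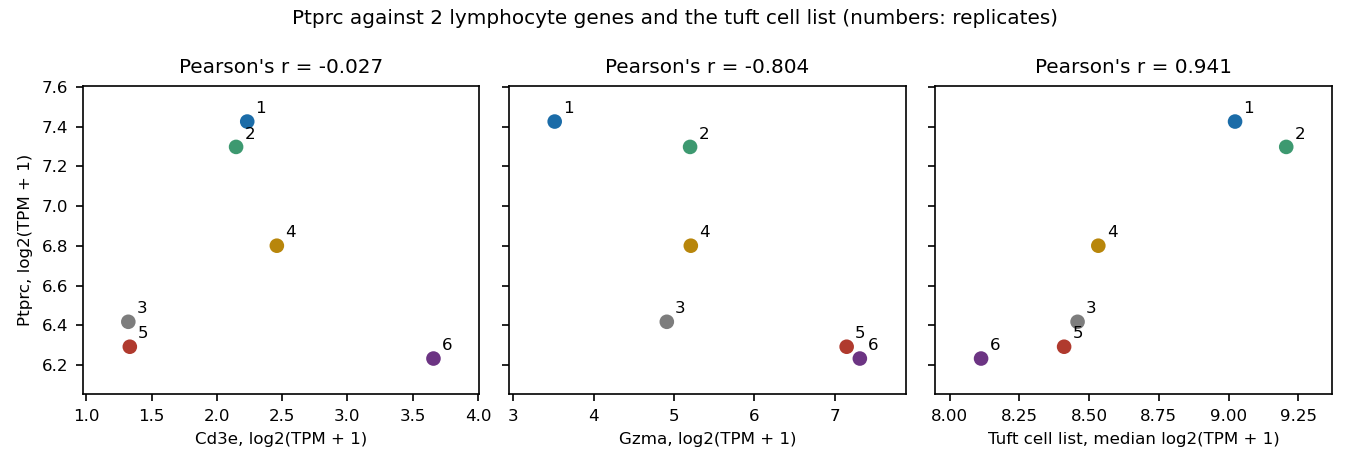
Ptprc, as log2(TPM + 1), against Cd3e, Gzma and the median of the 14 tuft cell genes on the same scale; each point is a library, numbered by replicate, and r is given over each panel. Replicate 6 has the highest Cd3e and the lowest Ptprc, and replicates 1 and 2 have the highest values of both Ptprc and the tuft cell list (r = 0.941).

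Other genes of lymphocytes were read from 4 lists. Of 28 genes of the T cell receptor and its signalling, 21 were found in the table, 18 were above 0 in at least 1 library and 4 in all libraries. The constant-region genes Trac, Trbc1, Trbc2, Trdc, Tcrg-C1, Tcrg-C2 and Tcrg-C4 were not analysed here. The most abundant was Lck, the kinase that phosphorylates the CD3 chains, at 6.33, 11.4, 3.90, 0.73, 7.94 and 16.5 TPM, followed by the transcription factor gene Bcl11b at 2.30 to 5.01 TPM and the phosphatase gene Ptpn22 at 0.65 to 6.63 TPM. Themis, Ubash3a and Trat1 were listed at 0 in every library. Cd247, the zeta chain of the same receptor complex, was at 0.19 TPM in replicate 3, 2.90 TPM in replicate 6 and 0 elsewhere, a gene named after its values were seen. Of the 7 genes of this list that were tested, none rose with Ptprc or with Cd3e, none fell with Cd3e and 1 fell with Ptprc, namely Lat, an adaptor of the same pathway that was also named after its values were seen (r = -0.82, exact permutation p = 0.0153, adjusted p = 0.459). Lat was listed at 0 in replicate 1, the library with the highest Ptprc, and had 0.99 to 5.97 TPM in the others. Of all genes, 6.91% rose and 2.24% fell with Ptprc, and 1.44% rose and 2.62% fell with Cd3e, shares at which a list of this size would hold few or no such genes.

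Of 25 genes of cytotoxic granules and natural killer receptors, 25 were found, 16 were above 0 in at least 1 library and 1 in all libraries. Klrd1, the gene of the receptor chain CD94, was listed at 0 in replicates 1 to 3 and at 15.8, 7.09 and 17.5 TPM in replicates 4 to 6. The chemokine gene Ccl4 had 0 to 14.3 TPM and the cathepsin gene Ctsw 0 to 11.4 TPM. Gzmc, Klrk1, Klrc1, Klrc2, Klrb1c, Klre1, Ncr1, Ifng and Ccl3 were listed at 0 in every library. Prf1, the gene of perforin, which granzymes use to enter a target cell, was listed at 2.93 TPM in replicate 6 and at 0 in the others, and was named after its values were seen. The summed level of the list was 23.3, 11.9, 17.6, 27.0, 36.9 and 55.5 TPM in replicates 1 to 6, highest in replicates 5 and 6. That of the T cell receptor list was 16.3, 20.1, 18.6, 12.1, 27.0 and 48.1 TPM. None of the 7 genes tested from the cytotoxic list rose or fell with Ptprc or with Cd3e, beside the same shares of all genes, so this count does not set the list apart.

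**Figure D4:**
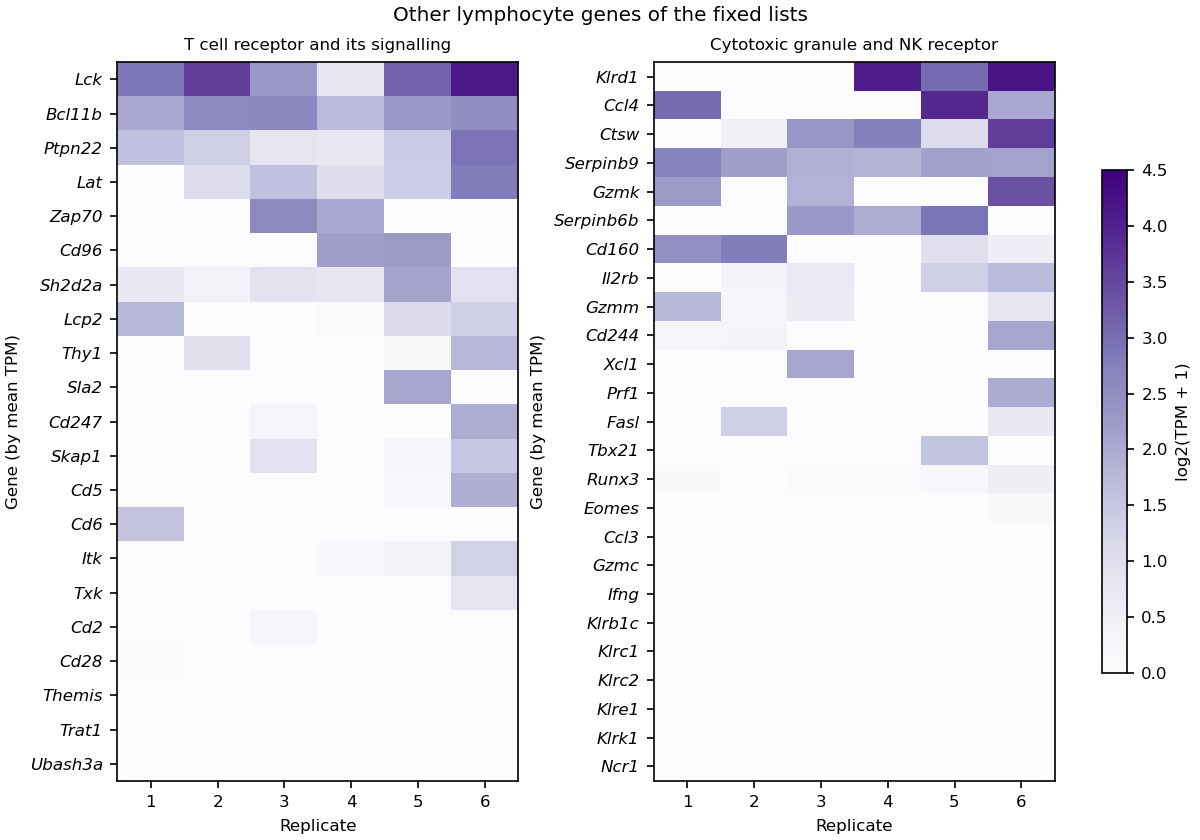
Level, as log2(TPM + 1), of the other T cell receptor and signalling genes (left, 21 genes) and cytotoxic genes (right, 25 genes) in replicates 1 to 6, ordered by mean TPM; darker purple is higher and white is 0. Lck and Klrd1 lead the lists, and 3 and 9 genes at the bottom are listed at 0 in every library.

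Of 11 genes of homing and residence, the most abundant was Cdh1, at 190 to 274 TPM, which encodes the E-cadherin that CD103 binds and is an epithelial gene. Jaml, an adhesion gene listed under its older symbol Amica1, had 2.61 to 7.32 TPM and Itga1 0.26 to 9.52 TPM. Jaml was the 1 gene of the 6 tested that fell with Cd3e (r = -0.95, exact permutation p = 0.00833, adjusted p = 1), and none rose, where 2.62% of all genes fell and 1.44% rose with Cd3e. Cd69, also among the 6 and named after its values were seen, was above 0 in replicate 1 only. Its exact p could therefore not be low enough to be counted, whatever the levels of Cd3e. Cd8b1, the CD8 beta chain gene, had 0.02 to 4.76 TPM, and Itgb7, the partner chain of Itgae, 0 to 5.53 TPM, both named after their values were seen.

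Of 19 pan-leukocyte genes, 8 were above 0 in all libraries. Rac2 had 380 to 1003 TPM, Vav1 281 to 481 TPM and Cd37 16.9 to 37.9 TPM, while the other 16 had means of at most 10.8 TPM and Cd48 was listed at 0. Rac2, which encodes a small GTPase of blood cells, rose with Ptprc (r = 0.963, exact permutation p = 0.00139, the smallest possible, adjusted p = 0.418), and Laptm5 fell with it (r = -0.69, exact permutation p = 0.0486, adjusted p = 0.531). Laptm5 was listed at 0 in replicate 1, the library with the highest Ptprc, and had 3.72 to 6.65 TPM in the others. Its r without that library was not computed. Rac2 and Laptm5 were 1 of 15 genes tested in each direction, where 6.91% of all genes rose and 2.24% fell with Ptprc, so the count of rising genes is near the background. Ptprc, Rac2 and Vav1 were thus at levels above those of every CD3 chain in each library.

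Markers of other cells were compared with the same libraries. The B and plasma cell list of 9 genes had 0.55 to 40.4 TPM in sum, led by Jchain at 0 to 38.2 TPM, Cd22 and Cd79b, with Ms4a1, Blk and Mzb1 listed at 0. The 12 macrophage and dendritic cell genes had 22.2 to 57.03 TPM, led by Itgam, Cd14 and Lyz2, and the 9 genes of group 2 innate lymphoid cells had 6.87 to 18.0 TPM, led by Areg, Rora and Il1rl1, with Il13, Il5, Klrg1 and Il7r listed at 0. The 7 mast cell genes had 100.2 to 158 TPM, nearly all from Kit, then Mcpt1 and Fcer1a, with Cma1 and Tpsb2 listed at 0. Of the epithelial lists, the Paneth cell genes (led by Defa24, Defa22 and Defa17) had 4089 to 26976 TPM and the enterocyte genes (led by Fabp1, Fabp6 and Apoa1) 7814 to 16572 TPM. The enteroendocrine genes (led by Sct, Gcg and Chgb) had 379 to 536.5 TPM. Kit (r = 0.952), Fabp1 (0.926) and Areg (0.865) rose with Ptprc at an unadjusted exact permutation p below 0.05, with adjusted p of 0.428 to 0.512. They were 1 of 3 mast cell, 1 of 8 enterocyte and 1 of 1 innate lymphoid genes tested, where 6.91% of all genes rose. Fcer1a, among the 3 mast cell genes, was above 0 in replicate 4 only, so its exact p could not be low enough to be counted. In the other lists of this paragraph the count was 0.

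Goblet cell genes, led by Zg16, Tff3 and Spink4, had their lowest sums in the 2 libraries with the highest Ptprc. In the exact permutation test at an unadjusted p below 0.05, 4 of the 7 fell with Ptprc, where 2.24% of all genes did, and 1 rose, where 6.91% did. The gene that rose was Clca1, at 6.67 and 1.78 TPM in replicates 1 and 2 and at most 1.21 TPM elsewhere, named after its values were seen. The sum of the list was 1155, 1053, 2495, 2324, 2986 and 5118 TPM in replicates 1 to 6, and the median of the 7 genes had r of -0.89 with Ptprc (exact permutation p = 0.00972, adjusted p = 0.0509 over 11 lists; rho = -0.89, exact p = 0.0333) and of 0.661 with Gzma (exact permutation p = 0.146). For the enteroendocrine list, r was -0.87 with Ptprc (exact permutation p = 0.0139, adjusted p = 0.0509) and rho was -0.77 (exact p = 0.103). Of its 8 genes tested, however, 0 fell and 0 rose with Ptprc, beside the same shares of all genes. Their median r was -0.27, and Sct, the most abundant, had 0.452. The median of the list was 0 in replicate 1, the library with the highest Ptprc. With Gzma, r of the list was 0.806 (exact permutation p = 0.0583), rho was 0.486 (exact p = 0.356), and r was 0.330 without replicates 1 and 5. The tuft cell list had r of -0.72 with Gzma (exact permutation p = 0.128). Gzma was not a planned anchor for the lists. Adjusted over the 11 lists, the exact p with Gzma was 0.401 for goblet, enteroendocrine and tuft cell genes. The part of goblet, enteroendocrine or tuft cell RNA in the levels of the lymphocyte genes was not tested. For the other 8 lists, the exact p with Ptprc was 0.2 or higher. The medians of the T cell receptor and cytotoxic lists were 0 in at least 4 libraries. That of the mast cell list was above 0 in replicate 4 only. The r of these 3 lists therefore carries little.

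The genes whose profile was nearest to the mean standardized level of the 10 members were, by Pearson's r over the 6 libraries, Lepr (0.987), Gm5531 (0.981), Prcc (0.980), Tmem69 (0.978), Ecm1 (0.978), Gm16702 (0.975), Vaultrc5 (0.974), Omd (0.967), Slc26a4 (0.966) and Rpusd2 (0.958). None of them is in a lymphocyte list used here. Omd had 102, 108, 69.9, 234, 275 and 335 TPM in replicates 1 to 6, and Lepr, the leptin receptor gene, had 0.96 to 3.64 TPM. Among the tested genes outside the members, 217 had r of at least 0.8 with that mean level, and Rn45s had 0.936. Against the mean of the other 9 members, r was 0.919 for Gzmb, 0.894 for Nkg7, 0.868 for Cd7, 0.839 for Gzma, 0.721 for Ccl5, 0.653 for Cd3g, 0.424 for Cd3e, 0.278 for Cd8a, 0.162 for Itgae and -0.47 for Cd3d.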

How the data were processed

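RNA of sorted ileal tuft cells was sequenced in 6 libraries, each labelled as a mouse replicate, after a modified SMART-Seq2 preparation. The submitters' labels name this protocol beside a 3' polyA and a droplet preparation for each library, and the methods describe the first only. The authors aligned paired-end reads to the mm10 transcriptome with Bowtie, estimated expression with RSEM and deposited TPM values per gene. RSEM splits reads among similar transcripts by estimated shares. DESeq2, named in the submitters' processing notes, was not used here. Columns were matched to replicates by number.

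Values were used as deposited, on the log2(TPM + 1) scale. Genes that averaged 1 TPM or more were tested by two-sided exact permutation of Pearson's r over 720 pairings (36 within sets of 3 libraries), with Benjamini-Hochberg adjustment, using code tested on simulated data. Each p-value is the share of pairings that gave a correlation at least as strong as the one found. The test over 720 pairings treats all libraries as interchangeable, although the sets of 3 differed in Gm20594. The test over 36 pairings exchanges libraries within each set only. No count model, counting interval or detection limit was possible, since depth is unknown.

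The 10 members, the gene lists, the tests and the sets of libraries were chosen with earlier results of these data known. The genes named are the members, Ptprc, the 3 most abundant genes of each list with its genes listed at 0 throughout, and the 10 genes nearest to the members' mean level, except where stated; a few list genes that this rule names are not reported here. Of 165 list genes, 158 were found, 3 of them by an older symbol (Amica1 for Jaml, Igj for Jchain and Emr1 for Adgre1). Positions are from GENCODE M21 and promoters from RefSeq, both on GRCm38. Alternatives were a pseudocount of 0.1, median-of-ratios rescaling, rescaling without Rn45s and Gm20594, rank correlation, centring within sets, no filter, values under 0.1 TPM set to 0, the mean in place of the median of a list, and each library left out. The ratio of the highest to the lowest summed level was added to the alternatives after the data were seen. Python 3.11.15, matplotlib 3.10.9, scipy 1.17.1, pandas 2.3.3 and numpy 2.4.6 were used.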

Additional observations from a re-analysis of the deposited data

Results flagged for a closer look

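Of 12 measures screened (the 10 lymphocyte genes, Ptprc and the summed level of the 10), 1 had a library far from the others when the gap to its nearest neighbour was divided by the range (Dixon's ratio, 95% critical value), where 0.6 would be expected by chance at about 1 in 20. Cd3e had 11.6 TPM in replicate 6 and at most 4.5 TPM elsewhere (ratio 0.704). On the log2(TPM + 1) scale the ratio was 0.513, below the critical value.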

How the results depend on the processing

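No adjusted p passed 0.05 for a member against Cd3e or Ptprc, which 6 libraries could hardly allow. With a pseudocount of 0.1, rank correlation or no filter, the counts of members that rose or fell were as reported. Median-of-ratios rescaling shifted the median of the tested genes by -0.19 to 0.103 on the log2 scale. Under it, and without Rn45s and Gm20594, the members rising with Cd3e numbered 1 rather than 0, and those falling with Ptprc 0 rather than 1, as after centring within replicates 1 to 3 and 4 to 6; the cause was not tested. Centring also took the median r with Ptprc to 0.00757 and the median over pairs to 0.0856. The mean Ptprc level was 161 TPM without Rn45s and Gm20594, by construction of that scale. With the mean of the list, the enteroendocrine r with Ptprc was -0.70 (exact permutation p = 0.124).

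Some correlations changed sign, none of them past an unadjusted p of 0.05. Cd3e with Ptprc was 0.0317 with a pseudocount of 0.1, 0.0362 without Rn45s and Gm20594 and 0.293 after centring, which also gave 0.333 for Cd8a (-0.24 before) and 0.422 for Cd7 (-0.55 before) with Ptprc, and -0.0773 for Cd3g, -0.0752 for Cd7, -0.0405 for Gzma and -0.22 for Ccl5 with Cd3e. Cd8a with Cd3e was 0.143 by rank. Ptprc with the mean of the homing list was 0.149 (-0.39 with the median), with that of the mast cell list -0.0652, and with the macrophage list after median-of-ratios rescaling -0.17.

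Leaving out each library in turn, the median r was -0.78 to -0.35 with Ptprc and -0.24 to 0.712 with Cd3e. Over pairs the median was 0.160 to 0.548 and 9 to 14 pairs reached 0.8, the 14 being without replicate 4. With Cd3e, r was -0.30 to 0.454 for Cd3g, -0.0761 to 0.956 for Cd3d, -0.60 to 0.209 for Cd8a, -0.54 to 0.712 for Gzma, -0.24 to 0.919 for Gzmb, -0.42 to 0.850 for Nkg7 and -0.58 to 0.526 for Ccl5. With Ptprc it was -0.30 to 0.775 for Cd3e, -0.44 to 0.149 for Cd8a, -0.40 to 0.716 for Itgae, -0.89 to -0.33 for Cd7 and -0.90 to -0.0120 for Cd3g, the last without replicate 1. Cd3d had 0.653 to 0.939 with Ptprc. For the lists with Ptprc it was 0.931 to 0.954 for tuft cell genes, -0.49 to 0.4997 for pan-leukocyte, -0.29 to 0.406 for macrophage, -0.0508 to 0.242 for mast cell, -0.37 to 0.159 for Paneth cell and -0.15 to 0.387 for enterocyte genes. No paired analysis was possible because the libraries form 1 group. Depth is unknown, so no limit of detection can be given for genes listed at 0, and 6 libraries cannot give an exact p below 0.00139.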
